A study of Homo sapiens with 6 samples.

Results

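MicroRNA genes and the transcripts that carry microRNAs were examined in polyA RNA from PANC-1, an established line of human pancreatic ductal carcinoma cells. Members were chosen by name and depth, as the rows named MIR with a number, or MIRLET7, that held at least 60 reads summed over the 6 libraries. The summed reads are therefore a description and not a finding. The rule took 178 of 1866 such rows, 22 with a host-gene symbol ending in HG and 156 named for a single miRNA locus. Another 1196 rows had 0 reads and 492 had between 1 and 59.

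The study compared 3 libraries of cells given siRNA against SUV420H2 with 3 libraries labelled control. SUV420H2 (KMT5C) is an enzyme that methylates a lysine of histone H4. The labels give no time after transfection, dose, siRNA sequence or content of the control transfection, and all 6 libraries came from the same cell line. Library totals were 25153340, 20863594 and 25931995 reads for the controls and 38022772, 27007534 and 29758241 for the knockdown.

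A miRNA starts as a hairpin inside a longer primary transcript, often an intron or exon of another gene. Drosha and DGCR8 cut the hairpin out, Dicer trims it, and an Argonaute protein holds the mature strand, whose seed, bases 2 to 8, pairs with target mRNAs. Mature miRNAs carry no polyA tail, so the reads here came from precursors or host transcripts and do not measure mature miRNA. For 99.3% of 545 miRNA loci, the gene length implied by the deposited counts and RPKM values lay within 5% of the hairpin length, so a locus counted reads overlapping its hairpin only.

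The mature sequences below belong to the loci with the largest changes and to well-known miRNAs carried by host genes that fell. They are written 5′ to 3′ with the seed in capitals and come from RefSeq (GRCh38.p14), whose table gave a mature sequence for 141 members.
hsa-miR-7846-3p: cAGCGGAGccuggagagaagg
hsa-miR-6084: uUCCGCCAgucgguggccgg
hsa-miR-4785: aGAGUCGGcgacgccgccagc
hsa-miR-4775: uUAAUUUUuuguuucggucacu
hsa-miR-7109-3p: cAAGCCUCuccugcccuuccag
hsa-miR-614: gAACGCCUguucuugccaggugg
hsa-miR-4793-3p: uCUGCACUgugaguuggcuggcu
hsa-miR-4523: gACCGAGAgggccucggcugu
hsa-miR-1229-3p: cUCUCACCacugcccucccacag
hsa-miR-210-3p: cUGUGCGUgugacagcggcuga
hsa-miR-31-5p: aGGCAAGAugcuggcauagcu
hsa-miR-9-5p: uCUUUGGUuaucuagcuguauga
hsa-miR-100-5p: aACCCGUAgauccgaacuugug
hsa-let-7a-5p: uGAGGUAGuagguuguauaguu
hsa-miR-125b-5p: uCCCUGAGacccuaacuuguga
hsa-miR-17-5p: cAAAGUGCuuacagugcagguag
No seed repeats among these lines. Across all members with a mature sequence, 221 mature strands had 217 different seeds, and 4 seeds were each shared by 2 loci.

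The largest fall among intronic loci was at MIR641, on chromosome 19, for which the table gave the hairpin alone. The hairpin of MIR1229 fills an intron of its host from splice site to splice site, and the capitals in its line mark the first and last 2 bases of that intron.
MIR641 hairpin: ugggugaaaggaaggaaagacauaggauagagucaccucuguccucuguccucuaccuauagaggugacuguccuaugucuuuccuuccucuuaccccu
MIR1229 hairpin: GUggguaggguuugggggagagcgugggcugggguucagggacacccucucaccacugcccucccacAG
MIR641 lies at chr19:40282543-40282641 on the minus strand, in an intron of AKT2. MIR1229 lies at chr5:179798278-179798346 on the minus strand, in MGAT4B. The other coordinates below are also GRCh38.

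Libraries were checked against their labels. KMT5C was at 7.23 to 12.7 CPM (reads relative to the library total, scaled by TMM) in the controls and at 5.86 to 6.11 in the knockdown. Epithelial markers were present in every library, among them CDH1 at 33.5 to 35 CPM in the controls and 374 to 384 in the knockdown. KRT8, KRT18 and EPCAM were also higher in all knockdown libraries, while KRT19 was at 827 to 1064 CPM in the controls and 719 to 760 in the knockdown. The part of this difference in the results on members was not tested. The extraction text speaks of neurons, microglia and astrocytes, but over all libraries AQP4 had 0 reads, P2RY12 1, PTPRC 3, CX3CR1 9, GFAP 13 and RBFOX3 47. SYP, also a neuronal marker, had 962 reads.

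Of the 178 members, 176 passed the low-count filter, and MIR6741 and MIR6832 did not. At an adjusted p of 0.05 (edgeR's quasi-likelihood test, Benjamini-Hochberg over all genes), 31 members rose, 49 fell and 96 were not called. That is 45.5% of the members tested, against 67.3% of all 15190 genes tested (33.1% higher and 34.2% lower). The groups did not overlap for 80 members, 45.5%, against 71.3% of all genes. Against a threshold of 1.5-fold (edgeR's glmTreat), 8 members rose and 8 fell, while 19.7% of all genes passed. The median log2 fold change of the members was −0.07, beside −0.01 for all genes.

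Members were thinly covered, with a median of 276 reads over all libraries and a range of 61 to 19608. Among members of 60 to 150 reads 32.8% were called, against 44.1% of all genes of that depth, and among members of at least 500 reads 59.7% were called, against 71.4%. In the deepest of these bins 8 members rose and 26 fell, beside 4050 and 4454 of all genes, and in the shallowest 14 rose and 6 fell, beside 386 and 229. A summed minimum favours what the deeper group expresses, since the knockdown libraries held more reads: 23 members had under 30 reads in the 3 controls together and 1 had under 30 in the knockdown. A rise in those 23, among them MIR7846, MIR4785, MIR4523 and MIR4793, was favoured by the rule. MIR1279, MIR6738 and MIR6832 were just inside the rule with 61 reads, and MIR9-3HG, MIR6762, MIR6764, MIR6785 and MIR6786 just outside with 59. The balance of directions moved with control replicate 3: without it 42 members rose and 42 fell.

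Of the 22 host genes, all tested, 11 fell, 3 rose and 8 were not called. The share called, 63.6%, was near that of all genes (67.3%, with 33.1% higher and 34.2% lower), and the median log2 fold change was −0.38 beside −0.01. By comparison, 28 of 154 tested single-locus members rose and 38 fell. These spliced long RNAs are the part of the set in which the count covers a whole transcript and not a hairpin.

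MIR210HG, which carries the hypoxia-responsive miR-210, was at 4.04, 3.81 and 4.27 CPM in the controls and at 1.15, 1.18 and 1.30 in the knockdown. All knockdown libraries lay under every control. This was a log2 fold change of −1.74 (SE 0.130, edgeR adjusted p = 4.97e-07), the largest fall among the host genes.

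MIR9-2HG, the transcript around a gene of the neural miR-9, was at 1.80, 2.46 and 2.35 CPM in the controls and at 0.575, 0.884 and 0.765 in the knockdown. The groups were again separate, at a log2 fold change of −1.59 (SE 0.207, edgeR adjusted p = 4.29e-05). MIR31HG, host of miR-31, was at 8.11, 7.90 and 8.97 CPM in the controls and at 3.26, 3.39 and 3.63 in the knockdown. Its libraries differed little within each group, with a log2 fold change of −1.29 (SE 0.0984, edgeR adjusted p = 6.07e-07).

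MIR100HG carries miR-100, let-7a-2 and miR-125b-1 in its introns. It was at 15.7, 16.6 and 14.7 CPM in the controls and at 8.17, 8.95 and 9.85 in the knockdown. Every knockdown library was lower, at a log2 fold change of −0.80 (SE 0.0889, edgeR adjusted p = 1.18e-05). MIR17HG, the transcript of the MYC-driven miR-17-92 cluster, was at 1.32, 0.868 and 1.18 CPM in the controls and at 0.731, 0.626 and 0.632 in the knockdown. Its fall of −0.76 (SE 0.219, edgeR adjusted p = 0.00995) rested on 145 reads. The call was lost without control replicate 1 (edgeR adjusted p = 0.0574) and with DESeq2 (adjusted p = 0.079). It was also lost under the 1.5-fold threshold test (glmTreat adjusted p = 0.338), which asks for a larger change.

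MIR497HG, which carries miR-195 and miR-497, was at 24.0, 24.1 and 25.2 CPM in the controls and at 17.4, 18.8 and 17.8 in the knockdown, and fell by 0.44 on the log2 scale (SE 0.0631, edgeR adjusted p = 8.61e-05). MIR22HG was at 12.3, 11.9 and 12.7 CPM against 7.89, 8.21 and 8.42, and fell by 0.59. Both changes were modest, with groups that did not overlap. The other host genes that fell were MIR4453HG (log2 fold change −0.95), MIR1915HG (−0.61), MIR762HG (−0.50) and MIR23AHG (−0.31), host of miR-23a, miR-27a and miR-24-2. The call on MIR23AHG was lost without control replicate 1, without knockdown replicate 3 and with DESeq2 (adjusted p = 0.0843), with adjusted p up to 1.0 under the 1.5-fold threshold test.

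Host genes that rose were fewer, and MIR503HG and MIR3936HG among them were weakly expressed. MIR503HG, an X-linked transcript beside miR-503, was at 0.679, 0.578 and 0.431 CPM in the controls and at 1.10, 1.07 and 0.965 in the knockdown. All knockdown libraries were above the controls, at a log2 fold change of 0.89 (SE 0.226, edgeR adjusted p = 0.00464). MIR3936HG rose by 0.94 (SE 0.203, edgeR adjusted p = 0.00174), from 0.599, 0.868 and 0.666 CPM to 1.44, 1.22 and 1.36. MIR4435-2HG rose by 0.29 (edgeR adjusted p = 0.0278), a call lost without control replicate 1, control replicate 2 or knockdown replicate 2, and with DESeq2 (adjusted p = 0.0885). Its adjusted p reached 1.0 under the 1.5-fold threshold test.

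The 8 host genes not called had log2 fold changes of −0.63 (MIR193BHG), −0.25 (MIRLET7BHG), −0.06 (MIR550A3HG), 0.02 (MIR600HG), 0.06 (MIR4458HG), 0.15 (MIR570HG), 0.25 (MIR4697HG) and 0.35 (MIR924HG). MIR550A3HG was the most abundant host gene, at 27.8, 28.5 and 28.3 CPM in the controls and 27.1, 27.4 and 26.7 in the knockdown. MIRLET7BHG, which carries let-7a-3 and let-7b, was at 2.04, 1.64 and 3.10 CPM in the controls, so that control replicate 3 alone was above every knockdown library (2.01, 2.25 and 1.53). MIR924HG passed as higher without control replicate 3 (edgeR adjusted p = 0.0196) and also without knockdown replicate 2.

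**Figure D1:**
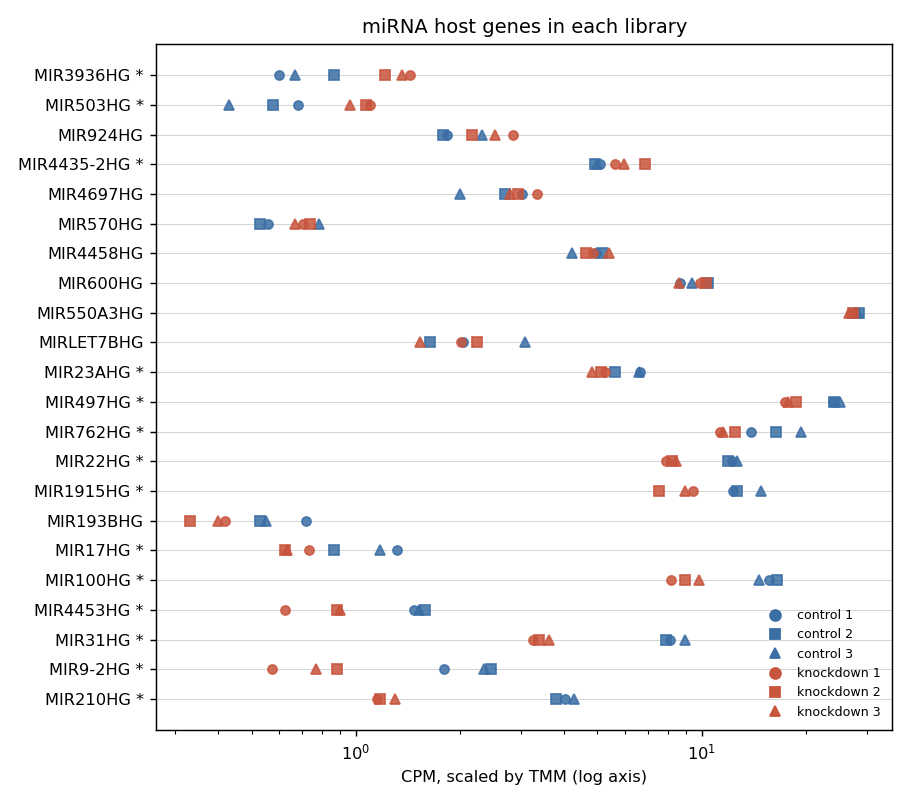
CPM scaled by TMM (log axis) of the 22 miRNA host genes in each library, ordered by log2 fold change, with blue for control, red for knockdown, the marker shape for the replicate and an asterisk for genes past the adjusted p of 0.05. MIR210HG, MIR9-2HG and MIR31HG sit lowest in the plot with red points left of all blue points, and MIR3936HG and MIR503HG at the top show the opposite order.

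The hairpins inside these host genes were seldom counted. Within the spans of 21 host genes lay 36 miRNA rows, of which 14 had 0 reads and only 2 were members, MIR22 with 92 reads and MIR762 with 577. All 6 hairpins of MIR17HG had 0 reads, as did MIR125B1, while MIR100 had 2 and MIRLET7A2 had 1. MIR210 had 8 reads in the controls and 10 in the knockdown, too few to set beside the fall of its host. MIR31 had 1 read and MIR9-2 had 5. A count of 0 allows up to 3 reads, for counting error only.

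Other well-studied loci gave the same picture. Of 26 looked up whatever their reads, 11 had 0 reads, 10 had 1 to 9, 4 had 10 to 59, and MIR22 alone was a member. The loci of the miR-200 family, MIR200A, MIR200B, MIR429, MIR200C and MIR141, which repress the mesenchymal regulators ZEB1 and ZEB2, all had 0 reads. MIR21, a widely studied oncogenic miRNA inside VMP1, had 5 reads, MIR221 had 13 and MIR196A1 had 29. MIR22 was at a mean of 0.677 CPM in the controls and 0.451 in the knockdown, with a log2 fold change of −0.60 (edgeR adjusted p = 0.0747), not called, beside −0.59 for MIR22HG.

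Among single loci, the largest change was at MIR7846 (chr1:12166943-12167038, plus strand), at the edge of an exon of TNFRSF1B, a receptor for tumour necrosis factor. It had 0, 0 and 7 reads in the controls and 89, 71 and 91 in the knockdown. All its control reads came from replicate 3. With so few control reads it met the rule of 60 reads only through the knockdown, so its direction was favoured by the choice of members and the values are descriptive. The ratio of summed reads per library size was 26.8 (95% counting interval 12.8 to 67.3), and against control replicates 1 and 2 alone, with 3 reads allowed over both, it was at least 40.1-fold higher. TNFRSF1B had a log2 fold change of 2.74.

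MIR6084 (chr1:20633679-20633788, plus strand) lies in coding sequence of PINK1, a kinase of mitochondrial quality control. It was at 0.320, 0.193 and 1.33 CPM in the controls and at 5.85, 6.0 and 5.23 in the knockdown. Control replicate 3 was again the highest control, and below all knockdown libraries. This was a log2 fold change of 3.14 (SE 0.336, edgeR adjusted p = 8.99e-06), beside 2.17 for PINK1.

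MIR4785 (chr2:160407810-160407882, minus strand) lies in an exon of the RNA-binding protein gene RBMS1, outside the coding sequence. It had 0, 0 and 7 reads in the controls and 22, 14 and 20 in the knockdown, and it too met the rule only through the knockdown. The ratio of summed reads per library size was 5.97 (95% counting interval 2.72 to 15.5), and against control replicates 1 and 2 it was at least 8.95-fold higher, values that the choice of members favoured. RBMS1 had a log2 fold change of 0.83.

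MIR4775 (chr2:207754807-207754881, plus strand) lies in an exon of the cyclin-like gene CCNYL1. It was at 3.76, 4.0 and 3.02 CPM in the controls and at 11.9, 10.9 and 13.4 in the knockdown. The increase, 1.76 (SE 0.121, edgeR adjusted p = 2.65e-07), was close to that of CCNYL1 at 1.81. MIR614 (chr12:12915829-12915918, plus strand), in an exon of the orphan receptor gene GPRC5A, was at 6.59, 6.65 and 8.23 CPM in the controls and at 22.5, 22.8 and 21.3 in the knockdown. That gave a log2 fold change of 1.63 (SE 0.0916, edgeR adjusted p = 5.49e-08), beside 1.26 for GPRC5A.

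Further loci that rose with their hosts were MIR7109, at an exon edge of PISD, which makes phosphatidylethanolamine in mitochondria, and MIR4793, at an exon edge of the cadherin gene CELSR3. MIR7109 went from 0.639, 0.819 and 1.10 CPM to 2.95, 2.25 and 2.76 (log2 fold change 1.64, PISD 1.37). MIR4793 went from 0.240, 0.193 and 0.196 CPM to 0.522, 0.700 and 0.699 (1.56, CELSR3 1.06). In both, every knockdown library was above every control. MIR4793 had under 30 reads in the 3 controls together, so its rise was favoured by the rule and its values are descriptive.

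MIR4523 (chr17:29390662-29390730, plus strand), in an exon of the stress kinase gene TAOK1, moved opposite to its host. It was at 0.200, 0.193 and 0.509 CPM in the controls and at 0.783, 0.884 and 0.799 in the knockdown. The groups were separate, and control replicate 3 lay between the other controls and the knockdown libraries. MIR4523 rose by 1.39 (SE 0.333, edgeR adjusted p = 0.00326) while TAOK1 fell by 0.27 (edgeR adjusted p = 0.00338). MIR4523 had under 30 reads in the 3 controls together, so its rise was favoured by the rule and its values are descriptive.

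MIR641, whose hairpin is given above, was at 3.20, 2.46 and 2.67 CPM in the controls and at 0.888, 1.10 and 0.466 in the knockdown. All knockdown libraries were below the controls, at a log2 fold change of −1.76 (SE 0.234, edgeR adjusted p = 4.98e-05). AKT2, a kinase of insulin signalling, held 452048 reads and differed by 0.12 (edgeR adjusted p = 0.0793). MIR1229 was at 1.28, 2.07 and 1.92 CPM in the controls and at 0.522, 0.773 and 0.399 in the knockdown. It fell by 1.64 (SE 0.266, edgeR adjusted p = 0.000229), and MGAT4B, an enzyme that branches N-glycans, fell by 1.49.

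**Figure D2:**
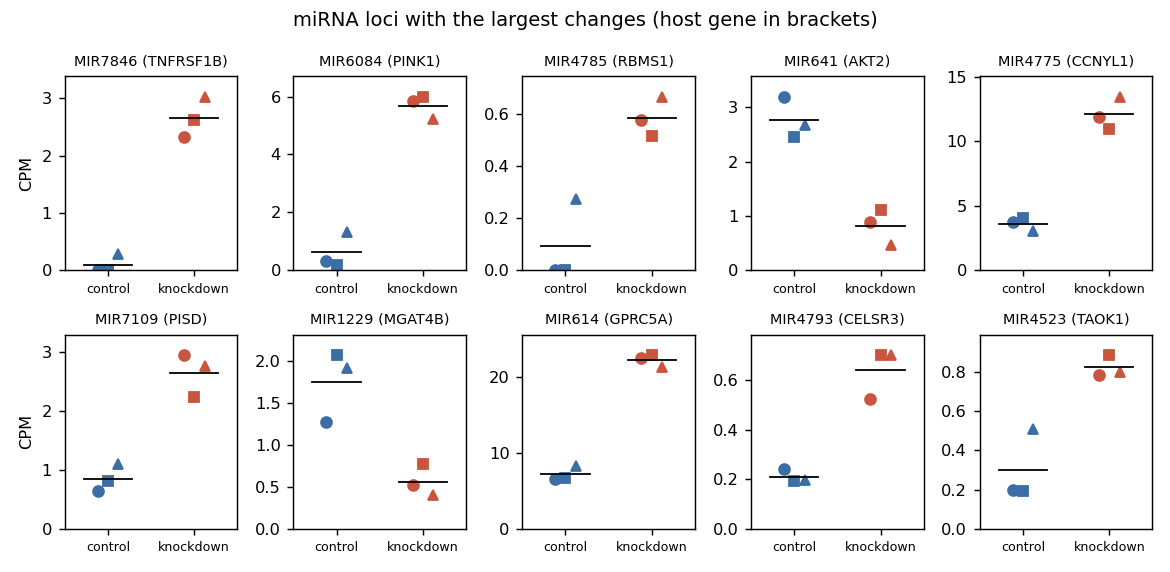
CPM of the 10 single miRNA loci with the largest changes, 1 panel each with the host gene in brackets, 3 control libraries (blue) and 3 knockdown libraries (red), marker shapes for replicates 1 (circle), 2 (square) and 3 (triangle) and bars for group means. The groups are separate in every panel, and in MIR7846, MIR6084, MIR4785 and MIR4523 the triangle of control replicate 3 stands above the other controls.

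The most abundant loci changed less. MIR1282, on the strand opposite to an exon of SERF2, was at 136, 134 and 154 CPM in the controls and at 101, 100 and 97.3 in the knockdown, and fell by 0.51 (SE 0.0552, edgeR adjusted p = 9.86e-06) beside −0.37 for SERF2. Counting was not stated to use strand, so reads of SERF2 and of MIR1282 cannot be told apart. MIR147B, in an exon of COXFA4L3, went from 30.6, 28.8 and 27.9 CPM to 18, 14.4 and 19.1 (log2 fold change −0.76, host −0.69). MIR4709, in an exon of NPC2, a lysosomal cholesterol carrier, went from 18.8, 20.1 and 16.9 CPM to 14.8, 11.8 and 13.1 (−0.48, host −0.27).

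MIR3652, in an exon of the endoplasmic reticulum chaperone gene HSP90B1, was at 38.7, 40.4 and 45.8 CPM in the controls and at 40.7, 45.7 and 38.8 in the knockdown. These groups overlapped, and the log2 fold change was 0.00 (edgeR adjusted p = 0.995). MIR3661, opposite to PPP2CA, which encodes a catalytic subunit of a protein phosphatase, was at 18, 18.5 and 24.4 CPM against 21.6, 22.3 and 21.1. It was not called, but passed as higher without control replicate 3 (edgeR adjusted p = 0.00115).

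Loci were then set beside their hosts. Of the 156 loci, 145 lay within a gene on their own strand that has a row in the tables, 44 in exons, 40 across an exon edge and 61 in introns. Of the 44 exonic loci, 29 lay in a coding gene outside its coding sequence and 7 in coding sequence. Per length, the hairpin stretch of exonic loci was at a median of 1.47 times the host's RPKM, that of exon-edge loci at 1.49 times and that of intronic loci at 0.206 times. The ranges were wide, 0.0523 to 15.4 in exons, 0.119 to 3.75 at exon edges and 0.0393 to 5.18 in introns. The length used is the hairpin's and the read length is not known, so values above 1 do not show that a hairpin exceeded its host.

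Across 142 loci with a tested host, log2 fold changes of locus and host had Pearson's r = 0.82, with 0.86 in exons (n = 44), 0.92 at exon edges (n = 40) and 0.66 in introns (n = 58). These correlations are across loci of the same 6 libraries, and a locus and its host can share reads, so they are descriptions without a test. MIR7846, MIR4785, MIR4793 and MIR4523 are among these loci, and a rise in them was favoured by the rule. A total of 119 of the 142 loci were within 0.5 of the host on the log2 scale, and 5 differed by more than 1. Of 62 loci called, 57 had a host called in the same direction. The other 5 were MIR641 in AKT2, MIR4523 in TAOK1, MIR6748 in TMEM179B (−0.98 against 0.10), MIR4750 in TBC1D17 (−0.85 against −0.17) and MIR3654 in CHCHD3 (−0.68 against 0.27). MIR4523 is among the members with few control reads, whose rise was favoured by the rule. Leaving out 1 library ended 3 of the 5 calls. MIR3654 was lost without control replicate 1 or 3 or any knockdown library, MIR4750 without control replicate 3 or knockdown replicate 1 or 3, and MIR6748 without control replicate 1 or 2 or knockdown replicate 1 or 3. Without control replicate 3 the adjusted p was 0.0679 for MIR3654 and 0.0961 for MIR4750, and without knockdown replicate 3 it was 0.0837 for MIR6748 (edgeR). MIR3654 overlaps an annotated pseudogene, and its reads are uncertain for that reason.

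**Figure D3:**
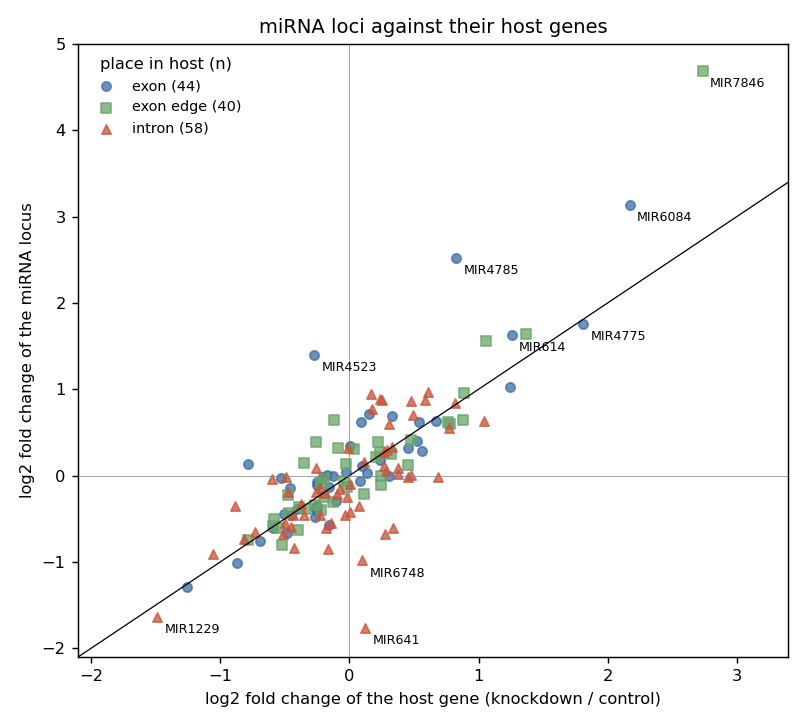
Log2 fold change of each miRNA locus against that of the gene it lies in, for 44 exonic (circles), 40 exon-edge (squares) and 58 intronic loci (triangles), with the line of equal change. Most points follow the line, while MIR4785, MIR4523 and MIR7846 lie above it and MIR641 and MIR6748 below. A rise in MIR4785, MIR4523 and MIR7846 was favoured by the choice of members.

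Reads of a locus per 1000 reads of its host give the difference that the host does not share. Of 144 pairs, 30 had groups that did not overlap, 20.8%, with 14 ratios higher and 16 lower in the knockdown. Intronic loci made up 17 of these, 12 lower and 5 higher, and loci in exons or at their edges 13, 4 lower and 9 higher. Pairs with a tested locus and host numbered 58 in introns, 44 in exons and 40 at exon edges. Among the 9 were MIR4523, MIR4785, MIR4793 and MIR7846, which had few control reads, so that a rise in them was favoured by the rule. None passed as a single test: the smallest exact two-sided permutation p for 3 against 3 libraries is 0.1, reached by 28 of 142 pairs, and the smallest after Benjamini-Hochberg adjustment was 0.507. Without control replicate 3 the number of pairs without overlap was 62 rather than 30. Separate groups are more frequent with 2 controls than with 3, and leaving out any other library gave 36 to 43.

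MIR641 had 1.30, 1.0 and 0.945 reads per 1000 reads of AKT2 in the controls and 0.314, 0.387 and 0.171 in the knockdown. MIR6748 had 22.1, 26.6 and 17.7 reads per 1000 of TMEM179B in the controls and 10.4, 15.6 and 4.99 in the knockdown, on 82 reads in all. Both intronic hairpins were lower in every knockdown library relative to the host. The log2 differences of the ratio were −1.96 (SE 0.380) and −1.23 (SE 0.511).

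Some loci in exons or at their edges were higher than their hosts. MIR4523 had 0.703, 0.646 and 2.09 reads per 1000 of TAOK1 in the controls and 3.49, 3.78 and 3.52 in the knockdown. MIR7846 had 0, 0 and 7.08 per 1000 of TNFRSF1B in the controls and 9.57, 11.2 and 12.7 in the knockdown, and MIR4785 had 0, 0 and 6.74 per 1000 of RBMS1 against 8.03, 7.37 and 8.76. All of these loci had few control reads, and a rise in them was favoured by the rule. In each of them, control replicate 3 lay nearer to the knockdown libraries than to the other controls or between them. MIR6084 had 10.4, 6.25 and 36.3 per 1000 of PINK1 in the controls and 39.1, 40.1 and 36.3 in the knockdown, so that control replicate 3 was level with the knockdown. By contrast, MIR4775 had 30.4, 33.0 and 27.2 per 1000 of CCNYL1 against 28.5, 26.9 and 31.8, with overlapping groups.

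**Figure D4:**
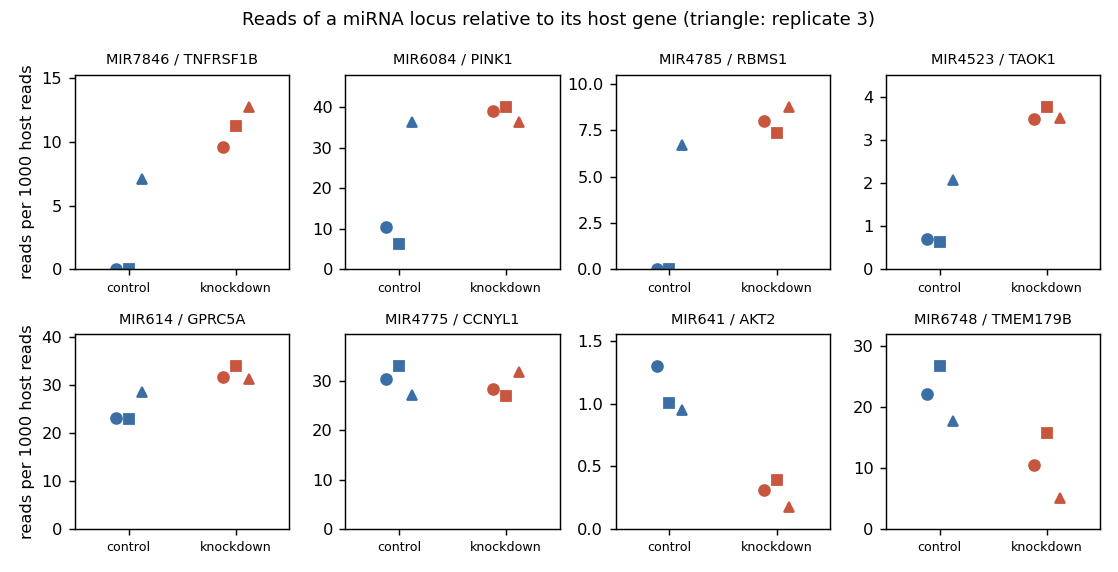
Reads of 8 miRNA loci per 1000 reads of the host gene in each library, blue for control, red for knockdown, with circles, squares and triangles for replicates 1, 2 and 3. In MIR7846, MIR6084, MIR4785 and MIR4523 the triangle of control replicate 3 stands apart from the other controls, and MIR641 and MIR6748 are lower in all knockdown libraries.

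Base composition and distance from a transcript start were set beside these differences. A hairpin sequence from RefSeq was found for 131 of 156 loci (84.0%), with a G+C content of 25.0% to 85.5% and a median of 61.4%. MIR7846 (75% G+C) overlaps an annotated transcript start, MIR4785 (80.8%) lies 7 bases from one, MIR4523 62 bases and MIR6084 (77.3%) 224 bases. Medians were taken over loci with both a G+C value and a tested host, which leaves out MIR4523. The 23 such loci within 300 bases of a start had a median G+C of 72.6%. Their median locus-minus-host log2 difference was 0.14, against 59.5% and −0.04 in the 96 farther away. MIR7846 and MIR4785 are among the 23, and a rise in them was favoured by the rule.

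Control replicate 3 moved with the same property. Over 131 loci, G+C had r = 0.46 with the log2 ratio of control replicate 3 to the mean of the other controls, r = 0.22 with the locus-minus-host difference (n = 120) and r = 0.13 with the log2 fold change (n = 131). The points share the libraries and their depth, and no test was made. They include MIR7846 and MIR4785, whose rise was favoured by the rule. In loci of at least 70% G+C the median log2 ratio of control replicate 3 was 0.29, in loci of 60% to 70% it was 0.20, and under 60% it was −0.02. These medians cover only the 120 loci with both a G+C value and a tested host. Control replicate 3 was the highest control in 90 of 176 members, 51.1%, against 41.1% of all genes. Its part in the results on G+C-rich loci was not tested beyond leaving the library out.

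Some loci changed call with that library. MIR636, at an exon edge of the splicing factor gene SRSF2, was at 7.55, 5.54 and 20.6 CPM in the controls and at 13.3, 12.3 and 12.2 in the knockdown. With control replicate 3 the log2 fold change was 0.15 (edgeR adjusted p = 0.727), and without it 0.93 (9.26e-09). MIR762 was at 2.16, 1.74 and 6.31 CPM in the controls and 2.98, 4.16 and 3.30 in the knockdown, with a log2 fold change of −0.02, and of 0.80 without control replicate 3. MIR3187 changed from −0.28 to 0.49. Of the 31 members that rose, 26 were also called higher without this library and 5 were not, while 39 of the 49 that fell were also called lower and 10 were not. A further 16 passed as higher and 3 as lower. With each of the 6 libraries left out in turn, 44 of the 80 calls held every time and 36 were lost at least once.

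**Figure D5:**
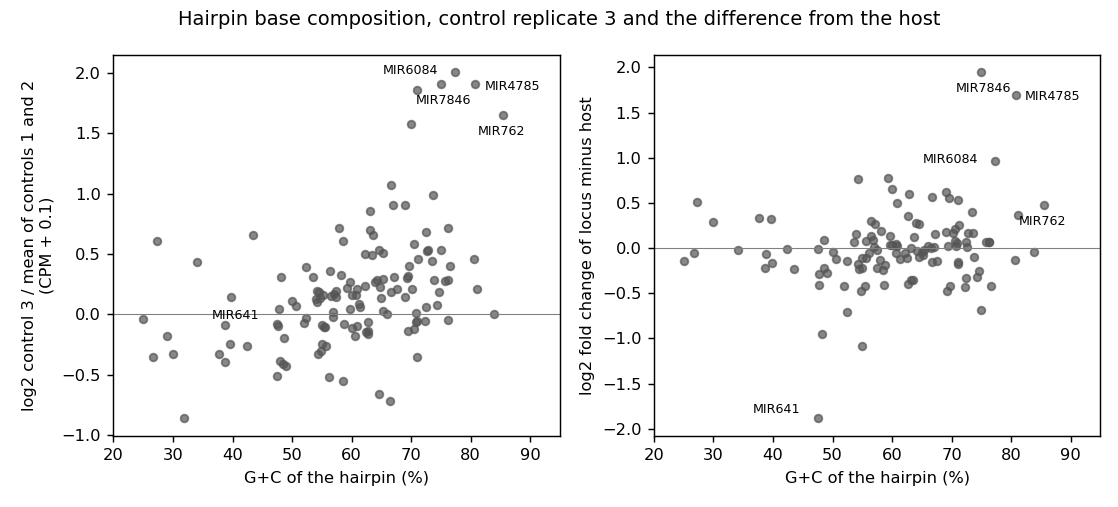
G+C content of the hairpin against the log2 ratio of control replicate 3 to the mean of control replicates 1 and 2 (left, CPM with 0.1 added, n = 131) and against the log2 fold change of the locus minus that of its host (right, n = 120), each point 1 miRNA locus. Points rise to the right in the left panel (r = 0.46) and only slightly in the right panel (r = 0.22), where MIR7846, MIR4785 and MIR6084 are high and MIR641 is low. A rise in MIR7846 and MIR4785 was favoured by the choice of members.

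Genes that make and use miRNAs were mostly lower. Of 30 such genes 29 were tested, 20 fell, 5 rose and 4 were not called, with a median log2 fold change of −0.23. The hairpin-cutting pair fell slightly, DROSHA from 95.8 ± 7.69 to 77.9 ± 2.03 CPM (SD, n = 3 each) and DGCR8 from 46.9 ± 0.686 to 39.4 ± 1.21. DICER1 was not called (log2 fold change −0.09). Of its partners, PRKRA fell from 68.2 ± 2.31 to 34.8 ± 0.623 CPM (−0.97) and TARBP2 rose from 41.2 ± 4.39 to 56.6 ± 0.460 (0.46).

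In the silencing complex, AGO2 rose from 36.5 ± 1.55 to 50.8 ± 3.98 CPM (log2 fold change 0.47) and AGO1 fell (−0.24). The Argonaute partners also differed in direction, with TNRC6C higher at 0.94 and TNRC6A lower at −0.65. The cap-binding gene NCBP2 fell by 0.65, and LIN28B, which blocks let-7 maturation, rose by 0.41. All these calls are edgeR's at an adjusted p of 0.05, and 67.3% of all genes tested were called, 33.1% higher and 34.2% lower.

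Some of these genes carry members themselves. DGCR8 holds MIR3618 and MIR1306 in its exons, with log2 fold changes of −0.41 and −0.36 that were not called, beside −0.25 for DGCR8. KHSRP, which binds let-7 precursors, carries MIR3940 at an exon edge. MIR3940 fell from 9.60 ± 0.334 to 6.39 ± 0.551 CPM (SD, n = 3 each), −0.58 on the log2 scale, and KHSRP by −0.59. In introns of DDX5, a helicase of the Drosha complex, MIR5047 had a log2 fold change of −0.45 and MIR3064 one of −0.14. MIR5047 passed with all libraries (edgeR adjusted p = 0.0173) and not without control replicate 3 (0.0784), and MIR3064 was not called.

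Textbook miRNA targets went both ways. Of 23 tested, 12 rose, 6 fell and 5 were not called, with a median log2 fold change of 0.13. Of all genes tested, 67.3% were called, 33.1% higher and 34.2% lower, with a median of −0.01. RECK, a miR-21 target, rose from 29.7 ± 1.63 to 64.0 ± 1.57 CPM (SD, n = 3 each; 1.11), and the cell cycle kinase gene CDK6 rose by 0.99. Of the other miR-21 targets listed, SPRY2 rose by 0.42, PDCD4 fell by 0.53 and TPM1 was not called. The miR-210 target EFNA3 fell from 3.77 ± 0.0625 to 1.90 ± 0.0651 CPM (−0.98), and ISCU, the other listed target of miR-210, was not called. The miR-200 target ZEB1 fell by 0.65, while ZEB2 was not called. The let-7 target HMGA2 rose by 0.36.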

How the data were processed

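Values came from 6 deposited tables with 30727 rows each. Per the file headers, the authors gave for every gene a count of uniquely aligned reads and an RPKM adjusted by a size factor; per the submitters' processing notes, reads were aligned with GSNAP to GRCh38. The sources used here do not state the counting program, read length or strand setting. RefSeq named 27814 IDs and GENCODE 37; 2876 had no symbol. Places in hosts came from GENCODE. Counts were tested with edgeR 4.0.16 (R 4.3.3) after filterByExpr (minimum count 10, minimum total 15) and TMM, all 6 libraries in 1 fit without covariates. The SE beside an edgeR log2 fold change is its size divided by the square root of the quasi-likelihood F statistic. For a difference of ratios to the host, the SE came from the variances of the log2 ratios in each group. Ratios to hosts were compared by an exact permutation test. RPKM served for lengths and levels per length. limma 3.58.1 and DESeq2 1.42.0 were alternatives. The procedure was tested on simulated data.

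The labels number no replicates and do not state separate cultures, so replicate numbers are names in accession order and p-values measure the spread between these libraries. Named loci were all host genes, the 10 with the largest called changes and separate groups, the 6 most abundant, listed well-studied loci and the top 4 of each gene list, of which 1 is not reported here; other names were chosen after their values were seen. Members and lists were chosen with earlier results of these data known. Intervals cover counting error only.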

Additional observations from a re-analysis of the deposited data

How the results depend on the processing

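Members called higher and lower numbered 31 and 49 with edgeR, 17 and 31 with DESeq2's Wald test (all 48 among edgeR's 80), 8 and 8 against a 1.5-fold threshold, and 3 and 11 among host-gene symbols alone, where fewer genes were counted. All genes called numbered 10216 with edgeR, 9284 with DESeq2's Wald test and 2998 against the 1.5-fold threshold, which asks for a larger change. Leaving out 1 library gave 21 to 42 members higher, 37 to 45 lower, 9184 to 11277 genes called in all, and 36 to 62 locus-to-host ratios without overlap, the last without control replicate 3 and against 30 with all libraries. Scaling by DESeq2 size factors, upper quartiles or total counts, no low-count filter, and limma-voom left the member counts within 1.5 times.

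Of the named genes' alternative values, 444 kept direction and call, 22 lost the call, 4 gained it and 11 changed sign. The sign changes were all in genes not called: with 1 library left out, MIR4458HG ranged from −0.0278 (without control replicate 3) to 0.117, MIR600HG from −0.038 (without control replicate 1) to 0.0898, MIRLET7BHG from −0.41 to 0.0503 (without control replicate 3), and MIR3652 from −0.0674 (without knockdown replicate 2) to 0.0703. MIR3652 was at −0.0058 with no filter and at −0.0013 with limma-voom. The cause was not tested. No paired analysis was possible because the labels give no replicate numbers. Depth limits most loci: a median member had 276 reads over 6 libraries.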

Other observations

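Hairpins that end exactly on both splice sites of an intron numbered 10 among the members, and 42 more ended on 1 splice site. Such hairpins can be released by splicing without Drosha. Of the 10, MIR6807 in TRIM28, MIR877 in ABCF1 and MIR6892 in ZYX passed as higher, MIR1229 in MGAT4B fell, and MIR1226, MIR1227, MIR3620, MIR6821, MIR6834 and MIR7108 were not called. Beside these, 40.7% of all intronic loci tested were called, and 67.3% of all genes tested (33.1% higher and 34.2% lower). MIR6807 was at a mean of 7.66 CPM in the controls and 11.6 in the knockdown, a log2 fold change of 0.60 (edgeR adjusted p = 7.42e-05), beside 0.30 for TRIM28. MIR877 had a log2 fold change of 0.77 (edgeR adjusted p = 0.0147), beside 0.17 for ABCF1. The call on MIR877 was lost without control replicate 1 (adjusted p = 0.0749), and that on MIR6892 without control replicate 1 or 2 or knockdown replicate 1 or 3, with adjusted p up to 0.166.

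The 4 seeds shared by 2 loci each joined MIR5090 with MIR6775, MIR4492 with MIR762, MIR6752 with MIR7110 and MIR6737 with MIR6819. In the pair with the seed UGGGGUG, MIR6737 in SLC39A1 rose by 0.89 (edgeR adjusted p = 0.00391) and MIR6819 in MYH9 had a log2 fold change of −0.66 (edgeR adjusted p = 0.025). The call on MIR6819 was lost without control replicate 3 (−0.41, adjusted p = 0.0989), knockdown replicate 1 or knockdown replicate 3. The hosts had log2 fold changes of 0.24 and −0.73. MIR3916, in an intron of a pseudogene transcript that could not be matched to a row, had a log2 fold change of 0.57 (edgeR adjusted p = 0.0139). That call was lost without control replicate 3 (adjusted p = 0.0535) or knockdown replicate 3 (0.0561).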
